A study of Mus musculus with 11 samples.

Results

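Chemokines are small secreted proteins that bind G protein-coupled receptors on leukocytes and draw those cells along a concentration gradient, and they are named after the spacing of the cysteines near the start of the protein (CC, CXC and CX3C). In dystrophic muscle, fibres that lack dystrophin are damaged repeatedly, and monocytes that leave the blood through Ccr2 and its ligands become the main inflammatory cells of the tissue. Other members of the family act on lymphocytes, neutrophils, endothelium or muscle precursors, and a few are made at a steady level in healthy tissue.

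The genes described here are every gene of the deposited mRNA table whose symbol begins with Ccl, Ccr, Cxcl or Cxcr followed by a digit, together with Cx3cl1, Cx3cr1, Pf4 and Ppbp. These were 56 of the 21759 genes in the table, 37 ligands and 19 receptors, and a gene with more than 1 probe set was read at the one with the highest mean signal. The mRNA came from sections of the tibialis anterior (TA), a fast muscle of the lower leg, of 11 male mice that were 14 weeks old. C57 mice (C57/Bl10, n = 3) carried wild-type dystrophin. The mdx mice (C57/Bl10ScSn-Dmd mdx/J, n = 4) carried a nonsense mutation in Dmd and received no oligonucleotide. The treated mice (n = 4) were mdx mice given a single intravenous dose of 12.5 mg/kg Pip6e-PMO at 12 weeks of age. Pip6e-PMO is a morpholino oligonucleotide joined to an arginine-rich cell-penetrating peptide, and it makes the splicing machinery skip the mutated exon so that a shortened dystrophin can be made. The dystrophic muscles therefore held mdx mice with and without the oligonucleotide, and no treated C57 mice were analysed here.

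The RNA of each mouse was hybridized to a separate Mouse Gene ST array of Affymetrix, and the median intensity of the 11 arrays was 27.5 to 28.6. All 12 markers of muscle fibres were well measured in every group, and none was called between groups. The probe set of Dmd measured 5.87, 5.83 and 5.77 in C57, 5.82, 5.36, 5.33 and 4.60 in mdx and 6.34, 5.51, 5.68 and 5.68 in treated mice on the log2 scale. These ranges overlapped in both comparisons, so this probe set did not check the labels. Values below are log2 intensities, given in the order of the mice of each group, and differences between group means are also on the log2 scale. Intensities of different probe sets are not on a shared scale, so levels are compared between mice and not between genes.

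A probe set was tested where its mean intensity reached 30 (4.91 on the log2 scale) in at least 1 group, and it counted as called when limma gave a Benjamini-Hochberg adjusted p under 0.05 over the 14494 probe sets tested. Of the 56 genes, 26 passed, 22 ligands and 4 receptors. The minimum was reached in every group by 18 of them, in C57 and mdx mice by Ccl24 and Cxcl1, in mdx and treated mice by Ccl17, Ccl2, Ccl3, Ccl8 and Cx3cr1, and in mdx mice alone by Cxcl10. These last 6 genes entered the test through the dystrophic groups, so counts over the 26 genes are a description of what passed. The other 30 genes had group means between 2.45 and 4.83. Among them were the ligands Ccl1, Ccl4, Ccl12, Ccl20, Ccl22, Ccl26, Ccl28, Cxcl2, Cxcl3, Cxcl5, Cxcl9, Cxcl11, Cxcl13, Cxcl15 and Cxcl17 and the receptors Ccr1, Ccr1l1, Ccr2, Ccr3, Ccr4, Ccr6, Ccr8, Ccr9, Ccr10, Cxcr1, Cxcr2, Cxcr3, Cxcr5 and Cxcr6.

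**Figure D1:**
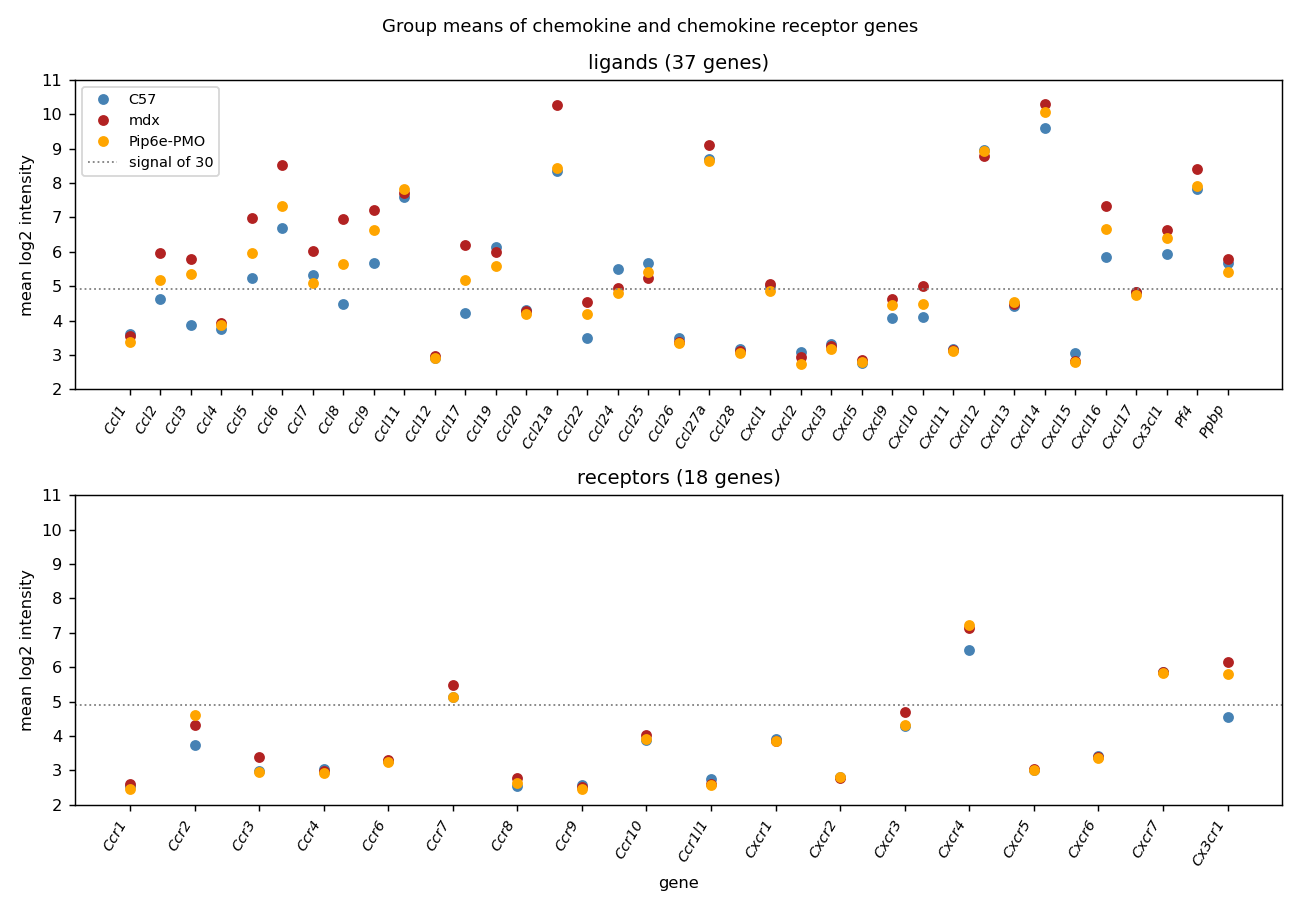
Mean log2 intensity of each of the 37 ligand genes (upper panel) and of 18 receptor genes (lower panel) in C57 (n = 3), mdx (n = 4) and Pip6e-PMO-treated mdx mice (n = 4); the dotted line is an intensity of 30. The groups lie close together below the line for most of the 30 genes that were not tested, and 22 of the 26 genes tested are ligands.

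In mdx against C57 muscle, 15 of the 26 genes tested were called higher and none lower, while 7.06% of all probe sets tested were called higher and 4.96% lower. By limma's unadjusted p under 0.05, 17 were higher and 2 lower (Ccl24 and Ccl25); the unmoderated test of the study's methods called 6 higher on log2 values, 5 higher on linear intensities and none lower, and limma with array weights called Ccl25 and Cxcl12 lower. The median difference was 0.70 over the 26 genes and -0.01 over all probe sets tested. Among the 18 genes above the minimum in every group, 9 were called higher. Every mdx mouse lay above every C57 mouse for each of the 15 genes, which their call makes likely. Over the 26 genes tested the groups did not overlap, in either direction, for 18. Of all probe sets tested, 13.1% had no overlap with mdx mice higher and 11.3% with mdx mice lower. The called ligands were Ccl8, Ccl17, Ccl3, Ccl21a, Ccl6, Ccl5, Ccl9, Cxcl16, Ccl2, Cxcl10, Cx3cl1, Cxcl14 and Ccl27a, and the called receptors were Cx3cr1 and Cxcr4. The arrays were not pooled, and each standard error (SE) rests on 1 spread between mice, shared by all 3 groups and moderated by limma over the probe sets tested. Leaving out a mouse of the group not compared can therefore also change a call.

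**Figure D2:**
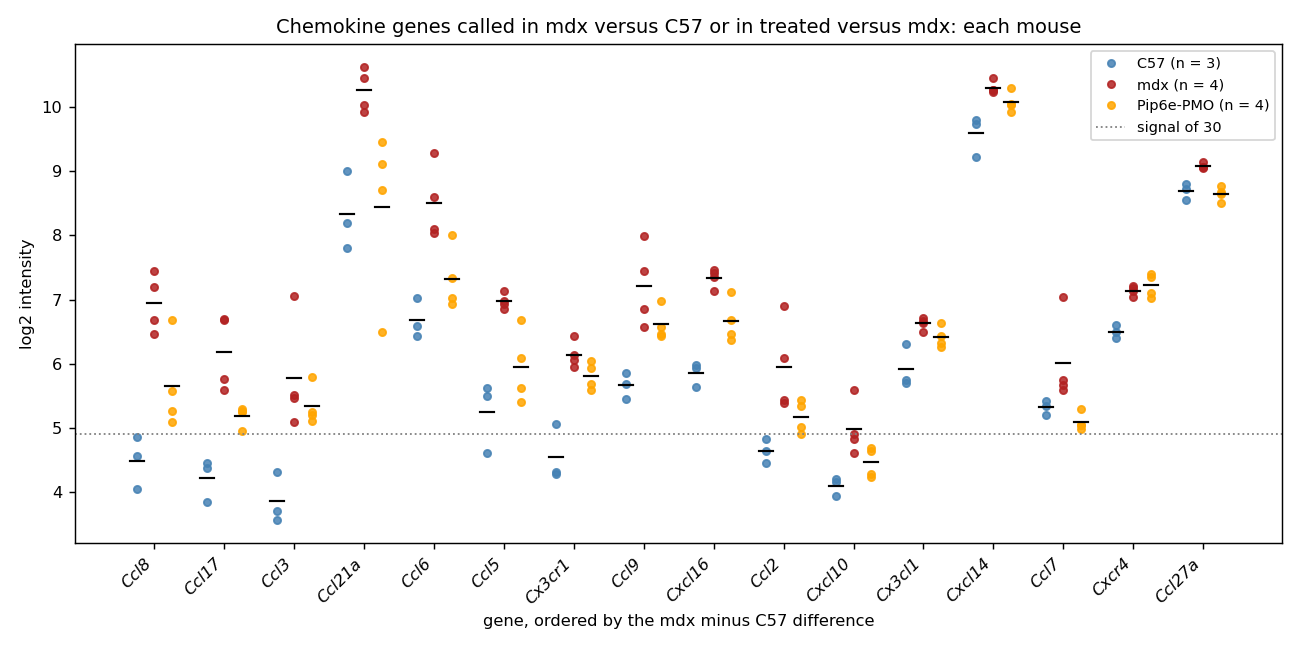
Log2 intensity in each mouse (points) and group mean (black bars) for the 16 genes called in mdx against C57 or in treated against mdx mice, ordered by the difference between mdx and C57; the dotted line is an intensity of 30. The mdx points of Ccl8 lie between 6.47 and 7.45 above C57 points of 4.05 to 4.86, while for Cxcr4 the treated points, 7.03 to 7.40, overlap the mdx points, 7.04 to 7.21.

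Of the 7 tested CC ligands grouped here as monocyte and macrophage ligands, 6 were called higher in mdx muscle. Ccl2, Ccl3 and Ccl8 passed the minimum only through the dystrophic groups, and of the 4 above it in every group Ccl5, Ccl6 and Ccl9 were called and Ccl7 was not. Ccl8, which lies in the gene cluster of Ccl2, measured 4.86, 4.05 and 4.56 in C57 mice and 6.68, 7.19, 6.47 and 7.45 in mdx mice. Its lowest mdx mouse stood clear of its highest C57 mouse. The difference was 2.46 (SE 0.35, adjusted p = 9.7e-04 in limma), with the C57 mean below the minimum. Ccl2, the classical ligand of Ccr2, measured 4.83, 4.65 and 4.45 in C57 mice and 6.09, 5.39, 5.43 and 6.90 in mdx mice. Mouse 4 of the mdx group was the highest and the groups did not overlap. The difference was 1.31 (SE 0.30, adjusted p = 0.0141), and it was no longer called without C57 mouse 2 or C57 mouse 3, with an adjusted p of up to 0.0641. Ccl7, another ligand of Ccr2, measured 5.35, 5.21 and 5.42 in C57 mice and 5.67, 5.59, 5.75 and 7.04 in mdx mice. All mdx mice lay above the C57 mice, with mouse 4 far above the rest, and the difference of 0.69 was not called (SE 0.28, adjusted p = 0.145).

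Ccl3, a ligand of Ccr1 and related receptors, measured 4.32, 3.56 and 3.71 in C57 mice and 5.10, 7.06, 5.51 and 5.47 in mdx mice, a difference of 1.92 (SE 0.38, adjusted p = 0.0063) in which mdx mouse 2 was the highest. Ccl5, made by T cells, platelets and macrophages, measured 4.61, 5.63 and 5.50 in C57 mice and 7.14, 6.93, 6.98 and 6.85 in mdx mice. The mdx mice lay close together above a more scattered C57 group, with a difference of 1.73 (SE 0.29, adjusted p = 0.00245). Ccl6, a rodent ligand of Ccr1, measured 6.43, 6.59 and 7.02 in C57 mice and 8.04, 8.60, 8.10 and 9.29 in mdx mice, a difference of 1.83 (SE 0.31, adjusted p = 0.00273). Ccl9, its neighbour and also a ligand of Ccr1, measured 5.69, 5.45 and 5.85 in C57 mice and 6.57, 7.44, 6.86 and 7.99 in mdx mice, a difference of 1.55 (SE 0.28, adjusted p = 0.00352). For both, mdx mouse 4 was the highest and no mdx mouse reached down to the C57 range. Ccl4 and Ccl12 of the same group were below the minimum.

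Among the ligands of lymphocyte and dendritic cell receptors, Ccl17, which binds Ccr4, measured 4.37, 4.45 and 3.85 in C57 mice and 5.59, 5.77, 6.70 and 6.69 in mdx mice. The mdx mice lay in a lower and an upper pair, both above C57, and the difference was 1.96 (SE 0.26, adjusted p = 6.4e-04). Ccl22, the other ligand of Ccr4, lay below the minimum at 3.40, 3.80 and 3.25 in C57 mice and 4.19, 4.37, 4.52 and 5.11 in mdx mice, again without overlap. Ccl21a, which guides Ccr7-bearing cells towards lymphatic vessels, measured 7.81, 8.20 and 9.01 in C57 mice and 10.45, 10.63, 9.92 and 10.04 in mdx mice. The difference of 1.92 was the least precise of the called genes (SE 0.56, adjusted p = 0.0451), and its call was lost with 8 of the 11 mice left out in turn. The treated mice enter that error too, with an SD of 1.34 against 0.61 in C57 and 0.34 in mdx mice. The 4 probe sets named Ccl21a held the same values at 4 places of chromosome 4 and are marked in the table as cross-hybridizing, so near-identical copies of this gene cannot be told apart. Ccl19, the second ligand of Ccr7, is likewise held by several probe sets of that chromosome and differed by -0.14 (adjusted p = 0.717). Cxcl10, an interferon-inducible ligand of Cxcr3, measured 4.16, 4.20 and 3.94 in C57 mice and 4.91, 4.83, 4.61 and 5.59 in mdx mice, a difference of 0.89 (SE 0.20, adjusted p = 0.014) that was not called without C57 mouse 3. Cxcl9 and Cxcl11, which share that receptor, were below the minimum.

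Both ligands that are anchored in the cell membrane and bind cells as well as attract them were higher in mdx muscle. Cxcl16, the ligand of Cxcr6, measured 5.93, 5.64 and 5.99 in C57 mice and 7.14, 7.42, 7.46 and 7.35 in mdx mice. The difference of 1.49 (SE 0.17) had the smallest adjusted p of the ligands, 1.9e-04. Cx3cl1, or fractalkine, measured 5.70, 5.75 and 6.31 in C57 mice and 6.64, 6.67, 6.49 and 6.72 in mdx mice, a difference of 0.71 (SE 0.15, adjusted p = 0.00797). Its receptor Cx3cr1, carried by monocytes and resident macrophages, measured 5.07, 4.31 and 4.28 in C57 mice and 6.06, 6.14, 5.95 and 6.43 in mdx mice. C57 mouse 1 was the highest control but stayed below every mdx mouse, and the difference was 1.59 (SE 0.19, adjusted p = 3.3e-04), with the C57 mean below the minimum.

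Cxcl14, a CXC ligand found in many tissues without inflammation, measured 9.23, 9.74 and 9.80 in C57 mice and 10.27, 10.24, 10.26 and 10.45 in mdx mice, a difference of 0.71 (SE 0.14, adjusted p = 0.0063). Cxcl12, which retains and guides cells through Cxcr4, measured 8.90, 9.08 and 8.91 in C57 mice and 8.81, 8.90, 8.66 and 8.73 in mdx mice. The groups met at 8.90 and the difference of -0.19 was not called (SE 0.10, adjusted p = 0.255). Cxcr4, the receptor of Cxcl12 on leukocytes, endothelium and muscle precursors, measured 6.60, 6.40 and 6.50 in C57 mice and 7.21, 7.13, 7.18 and 7.04 in mdx mice. Every mdx mouse lay above the C57 mice, and the difference was 0.64 (SE 0.11, adjusted p = 0.00276). Cxcr7, now named Ackr3, removes Cxcl12 from the tissue and differed by -0.01 (adjusted p = 0.974). Ccl27a, a ligand of Ccr10 best known from skin, measured 8.72, 8.56 and 8.80 in C57 mice and 9.15, 9.05, 9.07 and 9.07 in mdx mice, a small difference of 0.39 (SE 0.09, adjusted p = 0.0176) with little spread. Its probe set too is marked as cross-hybridizing, and its call was lost without C57 mouse 2.

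The other genes tested were not called in mdx against C57 muscle, with differences from -0.54 to 0.69. The neutrophil attractants of the Cxcr2 group were among them, with a difference of 0.07 for Cxcl1 (adjusted p = 0.855) and 0.12 for Ppbp (adjusted p = 0.809), and the other 4 ligands of that group were below the minimum. The ligands of the eosinophil receptor Ccr3 gave 0.11 for Ccl11 (adjusted p = 0.787) and -0.54 for Ccl24 (adjusted p = 0.133). The remaining values were 0.58 for Pf4, a platelet protein that macrophages also make (adjusted p = 0.225), 0.34 for Ccr7 (adjusted p = 0.131) and -0.44 for Ccl25 (adjusted p = 0.104). Another probe set of Ccl25, with a lower signal, did not share this direction, with means of 4.86 in C57 and 4.94 in mdx mice. None of these p-values shows that the groups were alike.

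Ccr2, the receptor of the monocyte ligands Ccl2 and Ccl7, was near the lower end of the signal. It measured 3.41, 3.77 and 4.05 in C57 mice, 4.49, 4.32, 4.18 and 4.30 in mdx mice and 4.43, 4.63, 4.85 and 4.52 in treated mice. All dystrophic mice lay above all C57 mice, the treated and mdx mice overlapped, and the minimum was not reached. In a fit of all probe sets without a minimum, Ccr2 differed by 0.58 (adjusted p = 0.0371) and Ccl22 by 1.06 (adjusted p = 0.00924) between mdx and C57 mice. In that fit treated mice also exceeded C57 mice by 0.86 for Ccr2 (adjusted p = 0.00376) and 0.71 for Ccl22 (adjusted p = 0.0423).

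After Pip6e-PMO, 8 of the 26 genes tested were called lower than in untreated mdx muscle and none higher (also none at limma's unadjusted p under 0.05 or under any alternative run), while 3.88% of all probe sets tested were called lower and 7.26% higher. All 8 were ligands, as were 22 of the 26 genes tested. Of the 18 genes above the minimum in every group, 6 were called lower. The other called genes, Ccl8 and Ccl17, entered the test only through the dystrophic groups. The median difference was -0.43 over the 26 genes and 0.02 over all probe sets tested. The treated and mdx mice did not overlap for 7 of the 26 genes tested. These 7 were all among the 8 called lower, which their call makes likely. Of all probe sets tested, 6.69% lay apart with treated mice lower and 9.29% with treated mice higher. The count of 8 depended on single mice. It was 1 without treated mouse 1, 3 or 4, 2 without mdx mouse 4, 3 without mdx mouse 3, 4 without mdx mouse 2 and 11 without treated mouse 2. Ccl27a was the one gene called with every mouse left out in turn. This comparison and that of mdx with C57 share the mdx mice, so a high mdx value moves both, and the values are given side by side.

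**Figure D3:**
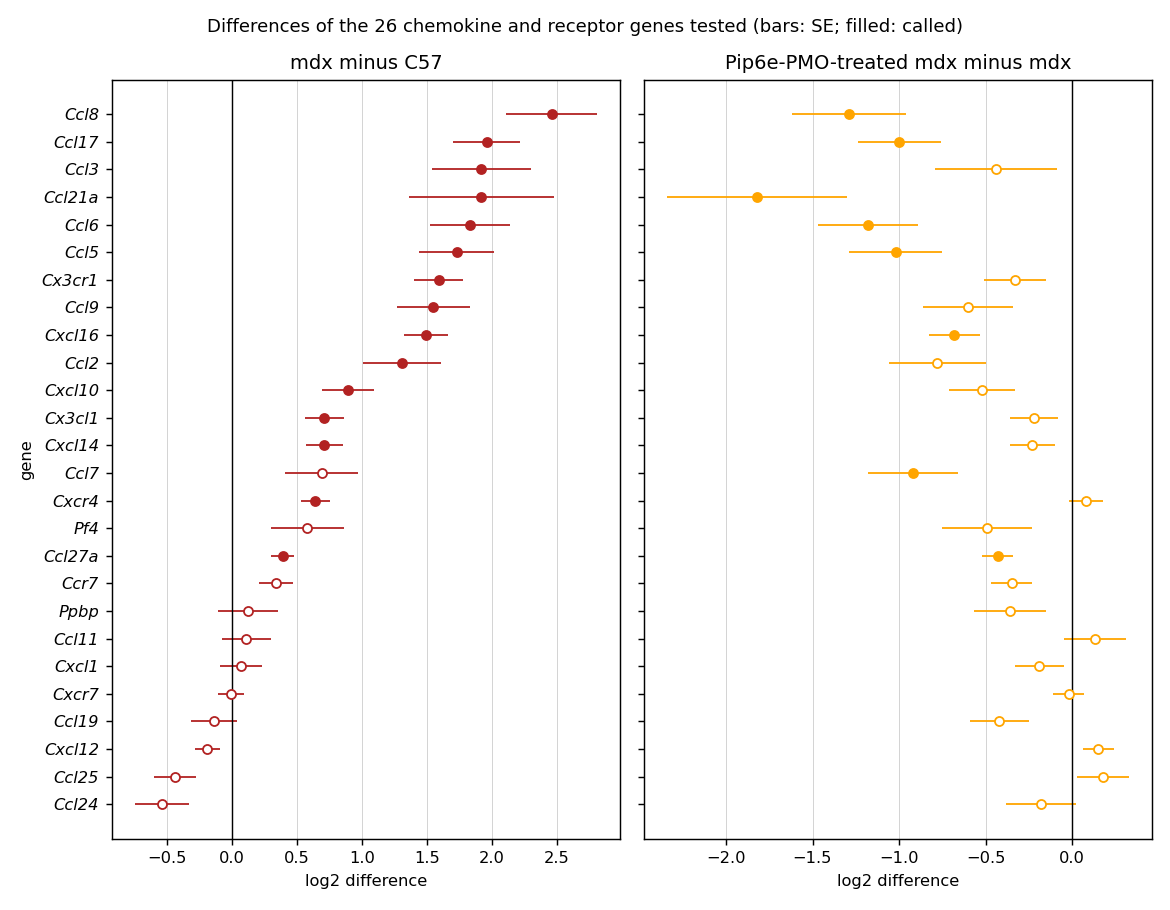
Difference between group means on the log2 scale for the 26 genes tested, mdx minus C57 (left) and Pip6e-PMO-treated mdx minus mdx (right), with bars for the standard error and filled points for genes called in limma. The left panel holds 15 filled points, all to the right of 0, and the right panel 8, all to the left; both panels use the same mdx mice.

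Of the monocyte ligands, 4 were called lower in treated than in mdx muscle. Ccl8 measured 5.09, 6.68, 5.57 and 5.27 in treated mice, where treated mouse 2 alone reached into the mdx range, and the difference from mdx was -1.29 (SE 0.33, adjusted p = 0.0309). Ccl6 measured 7.02, 8.00, 7.34 and 6.94, just under the lowest mdx mouse in treated mouse 2, with a difference of -1.18 (SE 0.29, adjusted p = 0.0282). Ccl5 measured 5.62, 6.68, 6.09 and 5.41, all below the mdx mice, with a difference of -1.02 (SE 0.27, adjusted p = 0.0342). Treated mouse 2 was the highest of the treated mice for all of these. Ccl7 measured 4.99, 5.04, 5.29 and 5.04 in treated mice, below every mdx mouse, with a difference of -0.92 (SE 0.26, adjusted p = 0.0414). Without mdx mouse 4, which carried the high value of 7.04, the difference was -0.58 and Ccl7 was still called. Its call was lost with 7 other mice left out in turn, every C57 mouse among them. The adjusted p of Ccl7 in limma then reached up to 0.102.

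Ccl17 measured 5.26, 5.29, 5.25 and 4.95 in treated mice, below all mdx mice and above all C57 mice, with 0.50 of the mdx level on the linear scale (SE of the log2 difference 0.24, adjusted p = 0.0287). Cxcl16 measured 6.47, 7.12, 6.69 and 6.37, a difference of -0.68 (SE 0.15, adjusted p = 0.0234) with treated mouse 2 again next to the mdx range. Ccl21a measured 8.71, 9.11, 9.46 and 6.49, a difference of -1.82 (SE 0.52, adjusted p = 0.0446). Treated mouse 4 lay below every C57 mouse for this gene, and the call was lost with 9 of the 11 mice left out in turn. Ccl27a measured 8.51, 8.65, 8.77 and 8.67, below every mdx mouse and within or just under the C57 range, with a difference of -0.43 (SE 0.09, adjusted p = 0.0161).

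Other genes called higher in mdx than in C57 muscle were not called between treated and mdx mice. Ccl3 measured 5.21, 5.25, 5.80 and 5.11 in treated mice, inside the mdx range, with a difference of -0.44 (SE 0.35, adjusted p = 0.414). Ccl2 measured 5.44, 5.35, 4.91 and 5.01 and reached the mdx range in treated mouse 1, with a difference of -0.78 (SE 0.28, adjusted p = 0.0856). Ccl9 measured 6.57, 6.98, 6.44 and 6.47, a difference of -0.60 (adjusted p = 0.132), and Cxcl10 measured 4.65, 4.29, 4.69 and 4.23, a difference of -0.52 (adjusted p = 0.0868). Cx3cl1 measured 6.32, 6.63, 6.27 and 6.43 and Cxcl14 measured 10.05, 10.29, 10.03 and 9.92, with differences of -0.22 (adjusted p = 0.297) and -0.23 (adjusted p = 0.244). In each of these genes at least 1 treated mouse lay within the mdx range.

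The called receptors were not among the genes called lower after treatment. Cx3cr1 measured 5.60, 6.04, 5.93 and 5.68 in treated mice, overlapping the mdx mice, with a difference of -0.33 (SE 0.18, adjusted p = 0.224). Cxcr4 measured 7.03, 7.40, 7.35 and 7.11, around the mdx values, with a difference of 0.08 (SE 0.10, adjusted p = 0.612). Only 4 receptors were tested. The others differed between treated and mdx mice by -0.35 for Ccr7 (adjusted p = 0.0823 in limma) and -0.02 for Cxcr7 (adjusted p = 0.893). Ccr7 was called lower with array weights or without treated mouse 2. Cxcl12 measured 8.82, 9.05, 8.91 and 8.94 in treated mice, which overlapped both other groups, with a difference from mdx of 0.15 (adjusted p = 0.257).

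Set against C57 mice, treated mice were higher for 9 of the 26 genes and lower for 2, while 15.6% of all probe sets tested were called higher and 8.96% lower. The median difference was 0.30 over the 26 genes and 0.00 over all probe sets tested. The 9 genes were Ccl3 (1.48, adjusted p = 0.0165), Cx3cr1 (1.26, adjusted p = 0.00119), Ccl8 (1.16, adjusted p = 0.0329), Ccl17 (0.96, adjusted p = 0.0218), Ccl9 (0.95, adjusted p = 0.0274), Cxcl16 (0.81, adjusted p = 0.0058), Cxcr4 (0.72, adjusted p = 0.00111), Cx3cl1 (0.49, adjusted p = 0.0309) and Cxcl14 (0.48, adjusted p = 0.0283). All but Cx3cl1 had every treated mouse above every C57 mouse, which their call makes likely. Over the 26 genes tested the groups did not overlap, in either direction, for 12. Of all probe sets tested, 17.9% lay apart with treated mice higher and 14.1% with treated mice lower. Ccl3, Cx3cr1, Ccl8 and Ccl17 entered the test only through the dystrophic groups, with C57 means below the minimum. Ccl9, Cxcl16, Cxcr4, Cx3cl1 and Cxcl14 were above the minimum in every group. Cx3cr1, Cxcr4 and Cxcl16 kept their calls with every mouse left out in turn, and the count of genes called higher was 5 without C57 mouse 2 or 3.

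The 2 genes lower than in C57 mice were Ccl24, an eosinophil attractant, and Ccl19. Ccl24 measured 5.84, 5.32 and 5.36 in C57, 4.38, 5.38, 4.90 and 5.20 in mdx and 4.64, 5.04, 4.71 and 4.75 in treated mice, and the treated mice lay below all C57 mice with a difference of -0.72 (SE 0.21, adjusted p = 0.03). Ccl19 measured 6.11, 5.99 and 6.32 in C57, 5.94, 6.14, 5.68 and 6.25 in mdx and 5.13, 5.94, 5.67 and 5.59 in treated mice. Its treated mice also lay below the C57 mice, with a difference of -0.56 (SE 0.18, adjusted p = 0.0444). The treated mean of Ccl24 lay below the minimum, and the probe sets of Ccl19 are marked as cross-hybridizing. Ccl19 was no longer called with 8 and Ccl24 with 6 of the 11 mice left out in turn.

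Restoration is the distance of a treated value from the mdx mean, as a percentage of the distance of the C57 mean from it, and places each treated mouse between 0% (the mdx mean) and 100% (the C57 mean). The genes were chosen by their call in mdx against C57 and the mdx mice enter both parts of the ratio, so these percentages are a description. Ccl17, Ccl2, Ccl3, Ccl8, Cx3cr1 and Cxcl10 entered the test only through the dystrophic groups. Their 100% point is therefore a C57 mean below the minimum, and the treated mean of Cxcl10 lay below it too. The median over the 15 genes was 50.9%, and the genes ran from -12.9% for Cxcr4 to 111% for Ccl27a. The lowest after Cxcr4 were Cx3cr1 (20.9%), Ccl3 (23.0%), Cx3cl1 (30.6%), Cxcl14 (32.5%) and Ccl9 (38.7%). The middle was held by Cxcl16 (45.7%), Ccl17 (50.9%), Ccl8 (52.7%), Cxcl10 (58.8%), Ccl2 (59.2%), Ccl5 (59.3%) and Ccl6 (64.7%), and Ccl21a reached 94.7%.

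The treated mice differed among themselves. The median over the 15 genes was 43.7% in treated mouse 1, 17.1% in treated mouse 2, 47.7% in treated mouse 3 and 65.3% in treated mouse 4 (SD over the 4 mice 19.9). Treated mouse 2 was the highest of the 4 for 10 of the 15 genes, and only 7 of its genes lay at 25% or more, against 14, 12 and 14 in treated mice 1, 3 and 4. The order was not the same for each gene. For Cxcl10 treated mouse 2 reached 78.5% and treated mouse 3 reached 33.3%, while for Ccl8 the values were 75.6%, 10.9%, 56.1% and 68.3%. In Ccl17 the 4 mice lay between 45.7% and 63.0%, and in Ccl21a between 41.7% and 196%.

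**Figure D4:**
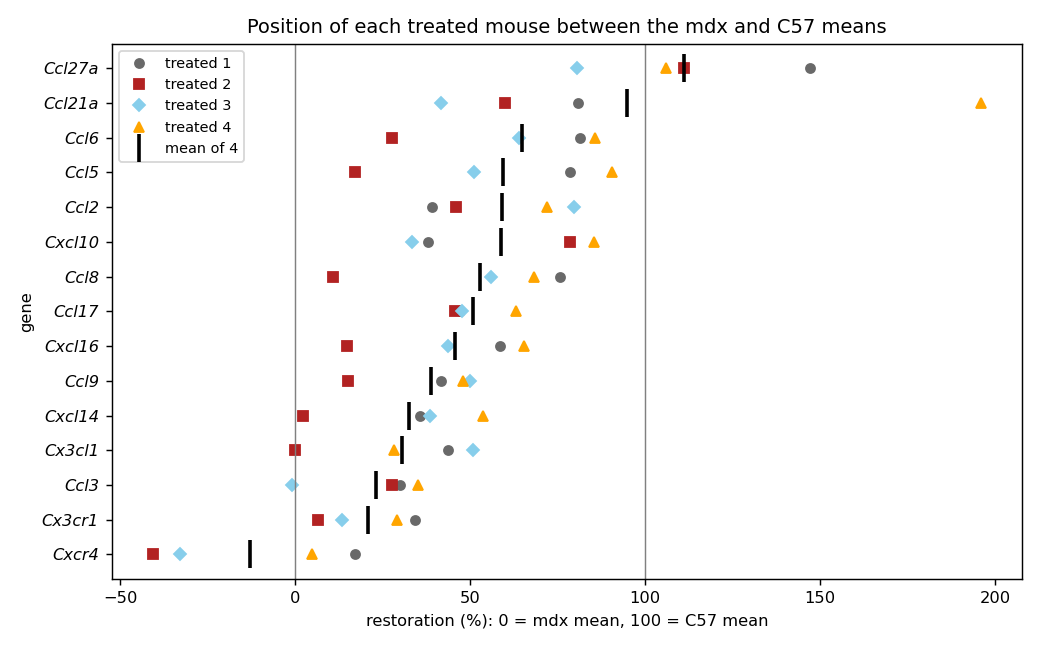
Restoration in percent of each treated mouse (coloured points) and of the mean of the 4 treated mice (black bars) for the 15 genes called higher in mdx than in C57 muscle; 0% is the mdx mean and 100% the C57 mean. Treated mouse 2 lies at the left for most genes, with a median of 17.1%, and Cxcr4 is the one gene whose mean, -12.9%, lies left of 0%.

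Markers of several cell types differed between the same groups, and in sections of whole muscle fewer cells of a type and less RNA per cell cannot be told apart. Of all probe sets tested, 7.06% were called higher and 4.96% lower in mdx than in C57 mice. In treated against mdx mice 3.88% were called lower and 7.26% higher. Of 14 macrophage markers, 12 were tested, 10 were called higher in mdx than in C57 mice and 3 lower (Cd68, C1qb and C1qc) and 1 higher (Mrc1) in treated than in mdx mice. The summed macrophage intensity was 2026 to 2447 in the C57 group, 4998 to 7347 in the mdx group and 3406 to 5201 in the treated group, with treated mouse 2 the highest of its group. Of 10 neutrophil markers the defining Ly6g, S100a8 and S100a9 stayed below the minimum in every group, and the 2 tested, Retnlg and Csf3r, were called higher in mdx and lower in treated mice (sums 114 to 126, 145 to 189 and 105 to 117). Of 12 T and NK cell markers 1 was tested and not called (sums 176 to 189, 208 to 214 and 188 to 196), and Cd3d, Cd3e, Cd3g and Cd8a stayed below the minimum. Of 7 B cell markers 1 was tested and not called (102 to 119, 114 to 132 and 110 to 127), and of 7 platelet markers 2 were tested and not called (119 to 141, 125 to 135 and 115 to 124).

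Of 8 dendritic cell markers 4 were tested, 2 called higher in mdx (Itgax and H2-DMb2) and 1 lower in treated mice (Cd209a), with sums of 356 to 383, 501 to 603 and 361 to 531. Of 10 eosinophil and mast cell markers 3 were tested and 1 was called higher in treated than in mdx mice (281 to 298, 282 to 392 and 285 to 341). Of 4 lymphatic endothelial markers 3 were tested and Pdpn was called higher in mdx mice, with sums of 241 to 278, 349 to 476 and 303 to 431. All 8 endothelial markers were tested, none was called in mdx mice and 2 were higher in treated mice, Pecam1 and Tek (2865 to 3143, 2878 to 3460 and 3328 to 4078). All 8 fibroblast markers were tested, with 3 higher in mdx and 2 lower in treated mice (6886 to 8061, 8970 to 10381 and 7745 to 11366). Of 8 markers of regenerating fibres and satellite cells 7 were tested and 5 were higher in mdx mice (686 to 871, 1382 to 2103 and 852 to 1572). Of 5 adipocyte markers 4 were tested and all 4 were lower in treated mice (356 to 638, 258 to 717 and 117 to 341). The 12 muscle fibre markers summed to 74624 to 78589, 78286 to 79037 and 74434 to 80567. These counts too stand beside 7.06% higher and 4.96% lower of all probe sets tested in mdx against C57 mice. For treated against mdx mice the shares were 3.88% lower and 7.26% higher. The part of these cells in the chemokine differences was not tested.

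Many chemokine genes lie in gene clusters, and the positions below are those of the deposited table, which names no genome build. On chromosome 11, from 81849076 to 81993314, lay Ccl2, Ccl7, Ccl11, Ccl12, Ccl8 and Ccl1. Of these 6 genes 4 were tested, and mdx mice were higher for Ccl2 and Ccl8 and treated mice lower for Ccl7 and Ccl8. From 83339280 to 83478182 on the same chromosome lay Ccl5, Ccl9, Ccl6, Ccl3 and Ccl4, of which 4 were tested and all 4 were called higher in mdx mice, with Ccl5 and Ccl6 lower in treated mice. On chromosome 4, from 41716340 to 42005099, lay the probe sets read here for Ccl27a, Ccl21a and Ccl19. All 3 were tested, and Ccl27a and Ccl21a were called higher in mdx and lower in treated mice. On chromosome 8, from 97269490 to 97335936, lay Ccl22, Cx3cl1 and Ccl17, of which the 2 tested were called higher in mdx mice, with Ccl17 lower in treated mice. The cluster of chromosome 5 from 91188325 to 91334964 held Cxcl5, Ppbp, Pf4, Cxcl3, Cxcl15, Cxcl1 and Cxcl2. Of its 7 genes 3 were tested and none was called in mdx or treated mice. Cxcl9, Cxcl10 and Cxcl11 lay farther along chromosome 5, from 92750630 to 92794511, with Cxcl10 alone tested. On chromosome 9 lay a cluster of receptor genes with Ccr9, Cxcr6, Ccr1, Ccr1l1, Ccr3 and Ccr2, and none of these reached the minimum.

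Promoter sequences are shown as a description, and shared control of neighbouring genes was not tested. RefSeq promoter windows of GRCm38.p6, from 250 bases before to 50 bases after the transcription start, were held for 41 of the 56 genes, 12 of them called higher in mdx mice. The windows were searched on both strands for the NF-kappaB consensus and for the core of the interferon-stimulated response element, GAAANNGAAA. The NF-kappaB and interferon matches did not overlap each other in any stretch printed here. The NF-kappaB consensus was in the window of 11 of the 41 genes (26.8%), against 9.55% of the 27025 genes of the table. Of the 12 genes called higher in mdx mice 3 held it, Cxcl10, Ccl9 and Ccl27a, and of the 7 genes with a window that were tested and not called 1 held it, Cxcl1. The others were Ccl1, Ccl20, Ccr1, Ccr3, Ccr6, Cxcl2 and Cxcl3, which were not tested. The interferon element was in a window of 3 of the 41 genes (7.32%), Cxcl10, Cxcl14 and Ccl19, against 3.99% of all genes. A match is a match of letters and not a measured binding site.

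The stretches with a match before the start are shown for the called genes, from 30 bases before the first match to 30 bases after the last or to the start, 5′ to 3′ on the strand of the gene, which is the minus strand for all 3, with the matches in capitals. Cxcl10 (chr5:92348953-92349132) held the interferon element first and then 2 runs of NF-kappaB matches, the second made of overlapping matches on both strands. Ccl9 (chr11:83578637-83578701) held 1 NF-kappaB match on the opposite strand. Cxcl14 (chr13:56296684-56296753) held 1 interferon element.
Cxcl10: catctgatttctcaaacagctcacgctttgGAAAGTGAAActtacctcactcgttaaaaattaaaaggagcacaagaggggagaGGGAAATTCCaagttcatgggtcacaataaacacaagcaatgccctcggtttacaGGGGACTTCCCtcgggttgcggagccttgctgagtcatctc
Ccl9: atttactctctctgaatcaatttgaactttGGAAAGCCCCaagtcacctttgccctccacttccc
Cxcl14: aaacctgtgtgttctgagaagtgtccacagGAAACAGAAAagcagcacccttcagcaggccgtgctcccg
Of these 3 genes, Ccl9 differed by 1.55, Cxcl10 by 0.89 and Cxcl14 by 0.71 between mdx and C57 mice. The windows of Ccl8, Ccl17, Ccl3, Ccl6, Ccl21a, Cx3cr1, Cx3cl1 and Cxcr4 held neither set of letters.

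A list of 60 signalling genes was read as well. It held atypical receptors, G proteins, kinases, Rac regulators and desensitizing proteins, which carry the chemokine signal inside the cell or control its range. Receptors and ligands of other attractants, among them Cd74, Mif, C5ar1, Fpr1, Cmklr1 and Rarres2, were also on it, so its counts are not of chemokine signalling alone. The array held 59 of the 60 genes and 49 were tested. Of these 20 were called higher and 1 lower in mdx than in C57 mice, against 7.06% higher and 4.96% lower of all probe sets tested. The median difference over the list was 0.32. Rac2, the Rac of blood cells, measured 5.88, 5.98 and 6.20 in C57, 7.26, 7.62, 7.25 and 7.76 in mdx and 6.20, 6.94, 6.52 and 6.31 in treated mice. The mdx mice lay above both other groups, with a difference from C57 of 1.45 (SE 0.18, adjusted p = 4.0e-04) and of treated from mdx mice of -0.98 (SE 0.17, adjusted p = 0.00958). Cd74, the invariant chain of class II antigen presentation and a receptor of Mif, measured 9.38, 9.27 and 9.51 in C57, 10.48, 10.81, 10.67 and 10.70 in mdx and 10.09, 10.44, 10.09 and 9.88 in treated mice. The 3 groups did not overlap, with differences of 1.28 (adjusted p = 9.0e-05) and -0.54 (adjusted p = 0.0229). C5ar1, the receptor of complement C5a, measured 5.93, 6.05 and 6.25 in C57, 6.88, 7.49, 7.17 and 7.42 in mdx and 6.39, 6.93, 6.11 and 6.12 in treated mice, with differences of 1.16 (adjusted p = 0.00293) and -0.85 (adjusted p = 0.0207). Treated mouse 2 alone reached the mdx range.

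Pik3r5, a regulatory subunit of the PI3-kinase that G proteins activate, measured 4.78, 4.80 and 5.12 in C57, 5.72, 6.28, 6.12 and 6.41 in mdx and 5.37, 6.12, 5.42 and 5.59 in treated mice, with differences of 1.23 (adjusted p = 0.00197) and -0.51 (adjusted p = 0.0853). Pak1, a kinase activated by Rac, measured 6.82, 6.24 and 6.17 in C57, 7.42, 7.41, 7.11 and 7.23 in mdx and 7.54, 6.91, 7.52 and 7.10 in treated mice. The dystrophic groups both lay above C57 and overlapped each other, with differences of 0.88 (adjusted p = 0.00914) and -0.03 (adjusted p = 0.936). The 1 gene called lower in mdx mice was Pik3cd, a catalytic PI3-kinase subunit of leukocytes, at 7.11, 7.30 and 7.40 in C57 and 6.48, 6.64, 6.59 and 6.96 in mdx mice (difference -0.60, adjusted p = 0.00656).

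Further members of the list called higher in mdx mice had differences from 0.31 to 0.82. They were the receptor Cmklr1, the G protein subunits Gnai2, Gnai3, Gngt2 and Gnb1, the Rac activators Dock2 and Vav1, the kinases Fgr, Ptk2b and Prkcb, the actin regulator Was, and Arrb1, Grk5 and Rgs2, which shut receptor signalling off. In treated against mdx mice 5 members of the list were called lower and 1 higher, against 3.88% lower and 7.26% higher of all probe sets tested, with a median difference of -0.10. Besides Rac2, Cd74 and C5ar1 these included Fgr, which measured 5.09, 5.44, 5.02 and 5.32 in mdx and 4.57, 5.12, 4.52 and 4.43 in treated mice (difference -0.56, adjusted p = 0.0388), and Wasl, a widely expressed relative of Was, which measured 6.98, 6.87, 7.08 and 6.88 in mdx and 7.66, 7.13, 7.44 and 7.29 in treated mice (difference 0.43, adjusted p = 0.0365). The groups overlapped for Fgr and not for Wasl. Without treated mouse 2 the list had 11 called lower and 6 higher, and without mdx mouse 4 it had 1 called lower and none higher.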

How the data were processed

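The deposited values are intensities on the linear scale, which the authors made in Affymetrix Expression Console by RMA (background correction, a sketch form of quantile normalization, median polish). A normalization across arrays fixes each array's overall level, so a shift shared by all genes would not be seen. The stated removal of probe sets under 30 in all groups was not applied in the table of 28350 probe sets and was applied here, which left 14494. In R 4.3.3, limma 3.58.1 fitted log2 values of the 11 mice with a mean per group (two-sided, moderated, Benjamini-Hochberg adjusted). It was tested on simulated data. The 3 or 4 arrays per group limit the precision. Groups came from the sample labels.

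The genes and lists were chosen with earlier results of these data known. Values are printed for up to 12 called genes in mdx against C57, 6 in treated against mdx and 4 in treated against C57 mice by size of difference, for 8 named ligands and receptors whatever their call, and for up to 6 genes of the signalling list per comparison. Ccl27a, Ccl22, Ccl24, Ccl19, Pik3cd and Dmd were added after their values were seen. The alternatives tried were the methods' t-test, an unequal-variance test, other fits, filters, scalings and probe set choices, a replicate block and each mouse left out; counting identical probe sets once was added after seeing the data. Tables were made with Python 3.11.15 and pandas 2.3.3, plots with matplotlib 3.10.9. Protein sequences were not analysed here, and the values of 2 genes are not reported.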

Additional observations from a re-analysis of the deposited data

Results flagged for a closer look

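Of 52 groups of 4 mice, 26 genes in mdx and in treated mice, 5 held a mouse far from the other 3 (by Dixon's test at the 95% level), where chance alone gives about 1 in 20. Ccl7 measured 7.04 in mdx mouse 4 against 5.59 to 5.75 in the other mdx mice, and 5.29 in treated mouse 3 against 4.99 to 5.04 in the other treated mice. Cxcl14 measured 10.45 in mdx mouse 4 against 10.24 to 10.27. Ccl17 measured 4.95 in treated mouse 4 against 5.25 to 5.29. Ppbp measured 5.03 in treated mouse 2 against 5.50 to 5.57. With mdx mouse 4 left out, Ccl7 differed by -0.58 between treated and mdx mice in place of -0.92. Why these mice stood apart was not tested.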

How the results depend on the processing

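In mdx against C57 mice, the 15 genes higher were 6 by the methods' t-test on log2 values, 5 on linear intensities, 2 by an unequal-variance test and 9 with a minimum of 100, which tests fewer genes; array weights called 2 lower. With each mouse left out 12 to 15 were higher and 0 lower. In treated against mdx mice, the 8 genes lower were 1 by the t-test on log2, on linear values and at the methods' unadjusted p under 0.01 with 1.5-fold, 0 by the unequal-variance test, 3 with only the 2 groups compared, 5 without a filter, and 1 to 11 with a mouse left out (0 higher in all). In treated against C57 mice, the 9 higher were 5, 1 and 0 by the same tests on log2, linear and unequal-variance values, 5 with a minimum of 100, 5 by the t-test at the methods' threshold, and 5 to 9 with a mouse left out; the 2 lower were 0 by these 3 tests and with a minimum of 100, 1 with only the 2 groups, without a filter and at the methods' threshold with limma or the t-test, and 0 to 2 with a mouse left out. Of the signalling list, the 20 higher in mdx mice were 9, 2 and 3 by the 3 tests, 8 with a minimum of 100, 11 by the t-test at the methods' threshold and 12 to 21 with a mouse left out (12 without C57 mouse 2), and the 1 lower was 0 by the 3 tests, 2 with only the 2 groups, 3 with array weights and 1 to 2 with a mouse left out. In treated against mdx mice its 5 lower were 0 by the 3 tests, 3 with only the 2 groups or a minimum of 100, 13 with array weights, 2 with limma and 1 with the t-test at the methods' threshold, and 1 to 11 with a mouse left out. Its 1 higher was 8 with array weights, 0 by the 3 tests, with only the 2 groups, after repeated quantile normalization and at the methods' threshold with either test, and 0 to 6 with a mouse left out. The cause of these shifts was not tested, apart from the smaller number of genes tested with a minimum of 100.

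The labels do not say that replicate numbers pair the mice. Same-numbered mice are different animals, and their deviations from the group means correlated between -0.297 and 0.153. With so few mice per group these correlations cannot settle whether a number marks something shared. With a replicate block, 13 genes were higher in mdx than in C57 mice, 3 lower in treated than in mdx mice, and 5 higher and 0 lower in treated than in C57 mice; the signalling list had 14 higher in mdx, and 2 lower and 0 higher in treated mice. The median restoration stayed within 1 SD of the treated mice under every alternative run, from 38.7% without a filter to 52.8% after repeated quantile normalization, and with each mouse left out from 40.1% to 52.7%. No called difference of a chemokine gene or listed gene changed its sign under the alternatives run. Differences near 0 that were not called did, among them in mdx against C57 mice Ccl11 (0.11 to -0.03), Cxcl1 (0.07 to -0.08) and Ppbp (0.12 to -0.12), and in treated against C57 mice Ccl21a (0.10 to -0.24) and Pf4 (0.09 to -0.14), with a mouse left out. Of 1827 verdicts on single genes, 1619 kept their call or lack of one, 196 lost a call and 12 gained one. These verdicts cover 78 results, and only a called result could lose a call. Called were 15 in mdx against C57, 8 in treated against mdx, and 9 higher and 2 lower in treated against C57 mice. The 196 losses fall on these alone.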
